A study of Mus musculus with 16 samples.

Results

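The genes of the epidermal differentiation complex were followed in inflamed mouse ear skin. They were taken by symbol: every gene whose symbol starts with Lce or Sprr, together with Flg, Flg2, Hrnr, Rptn, Tchh, Tchhl1, Crnn, Lor, Ivl, Crct1, Kprp and Prr9, and without the S100 genes of the same locus. This gave 47 genes of the 19439 listed in at least 1 library, namely 21 late cornified envelope (Lce) genes, 14 small proline-rich (Sprr) genes, 7 fused-type S100 genes and 5 genes that are single of their kind. All 47 lie on chromosome 3 within 1391 kb, from position 92080271 to 93471980 of the mouse genome build GRCm38. A filter on low counts left 46 of them for testing. The 1 left out, Sprr3, had no counts in 9 of 16 libraries.

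The libraries were made from the ears of BALB/c mice, 8 weeks old, and every mouse received imiquimod (IMQ), an immune-activating drug that causes psoriasis-like inflammation on mouse skin. Lysophosphatidylcholine (LPC), a membrane lipid with a single fatty acid chain, was injected into the ear skin at 10 mM in 10 µl, and vehicle mice got the same volume of normal saline. Injection was planned daily over 6 days, and mice were killed on day 4 or day 7. The groups were LPC day 7, vehicle day 7, LPC day 4 and vehicle day 4, each with 4 mice and 1 library per mouse. No group without imiquimod was analysed here, so levels in uninflamed skin are not given. The libraries summed to between 18704197 and 20131513 expected counts. Each of the 10 basal keratinocyte markers and 7 suprabasal keratinocyte markers had counts in each library. The libraries also held other tissue in varying amounts: the summed level of 10 skeletal muscle markers ran from 332 to 15865 CPM (counts scaled to a common library size) in LPC day 7, 1987 to 8447 CPM in vehicle day 7, 247 to 2561 CPM in LPC day 4 and 2811 to 30767 CPM in vehicle day 4.

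Keratinocytes at the end of their life in the epidermis replace the plasma membrane by the cornified envelope, a shell of crosslinked proteins. Loricrin (Lor), involucrin (Ivl), the Lce proteins and the Sprr proteins are structural parts of that shell, and filaggrin (Flg) and its fused-type S100 relatives bundle keratin or fill the cell at the same stage. Lor, Flg and the Lce1 group are known for normal cornification, and Sprr and Lce3 genes for wounded or psoriatic epidermis. Trichohyalin (Tchh) is known mainly from the inner root sheath and medulla of the hair follicle.

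The Lce and Sprr genes are short and alike, and the first 60 bases of their coding sequences show how close the copies are. The 3 members with the highest mean FPKM (fragments scaled by transcript length and library size) of Lce1 and of Sprr2 are given here from the GENCODE M21 transcripts, 5′ to 3′ from the start codon, with capitals where a gene differs from the first gene of its group.
Lce1a1: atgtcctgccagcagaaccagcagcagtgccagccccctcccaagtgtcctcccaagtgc
Lce1b: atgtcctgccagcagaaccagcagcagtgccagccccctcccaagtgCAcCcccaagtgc
Lce1d: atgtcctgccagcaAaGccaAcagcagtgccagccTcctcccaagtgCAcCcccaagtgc
Sprr2d: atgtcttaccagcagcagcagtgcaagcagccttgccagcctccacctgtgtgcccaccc
Sprr2h: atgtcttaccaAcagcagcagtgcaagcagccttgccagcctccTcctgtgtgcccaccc
Sprr2a3: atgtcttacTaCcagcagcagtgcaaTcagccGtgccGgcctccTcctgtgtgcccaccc
Of the 60 bases, Lce1b differed from Lce1a1 at 3 and Lce1d at 7. Sprr2h differed from Sprr2d at 2 and Sprr2a3 at 6. Over whole transcripts, the median share of 50-base words that also occur in another member was 21.1% for Lce1, 39.7% for Lce3 and 10.4% for Sprr2. It was 93.8% for Sprr2a1, 96.5% for Sprr2a2 and 47.4% for Sprr2a3, so the division of reads among those 3 genes is uncertain. It was 0% for Lor, Ivl, Kprp, Lce6a, Lce1m and the fused-type S100 genes other than Flg. The Flg transcript compared had 1076 bases, against a length of 13683 in the deposited tables, so most of Flg was not compared.

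The upstream regions carry different motif letters in the Lce and Sprr genes, and the 250 bases before the start of 5 members are printed from RefSeq annotation of GRCm38.p6, 5′ to 3′ on the strand of the gene. Capitals mark matches, on either strand, to the AP-1 motif TGANTCA, the TATA box TATAAA and the octamer ATGCAAAT, a motif of POU factors, whose reverse complement reads ATTTGCAT.
Lor (chr3:92083143-92083392, minus strand): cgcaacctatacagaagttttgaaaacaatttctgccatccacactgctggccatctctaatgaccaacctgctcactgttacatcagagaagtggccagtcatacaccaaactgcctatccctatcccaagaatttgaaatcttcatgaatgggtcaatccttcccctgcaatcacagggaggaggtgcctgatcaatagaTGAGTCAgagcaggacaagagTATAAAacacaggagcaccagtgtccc
Lce1a1 (chr3:92648308-92648557, minus strand): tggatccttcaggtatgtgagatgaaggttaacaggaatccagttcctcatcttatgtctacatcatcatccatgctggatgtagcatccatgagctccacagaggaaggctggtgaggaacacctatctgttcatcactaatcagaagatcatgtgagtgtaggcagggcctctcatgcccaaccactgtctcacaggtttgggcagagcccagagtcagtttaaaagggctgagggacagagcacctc
Lce3c (chr3:92944236-92944485, plus strand): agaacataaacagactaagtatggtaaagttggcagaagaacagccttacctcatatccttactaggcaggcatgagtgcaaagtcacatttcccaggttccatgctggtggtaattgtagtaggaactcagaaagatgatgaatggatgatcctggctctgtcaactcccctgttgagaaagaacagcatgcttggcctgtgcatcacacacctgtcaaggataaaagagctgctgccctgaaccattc
Sprr1b (chr3:92438780-92439029, minus strand): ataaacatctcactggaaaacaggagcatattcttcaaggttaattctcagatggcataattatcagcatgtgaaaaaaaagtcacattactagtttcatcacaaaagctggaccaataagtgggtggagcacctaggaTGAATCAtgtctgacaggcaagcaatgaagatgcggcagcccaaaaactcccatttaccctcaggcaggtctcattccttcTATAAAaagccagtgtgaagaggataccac
Sprr2d (chr3:92338890-92339139, plus strand): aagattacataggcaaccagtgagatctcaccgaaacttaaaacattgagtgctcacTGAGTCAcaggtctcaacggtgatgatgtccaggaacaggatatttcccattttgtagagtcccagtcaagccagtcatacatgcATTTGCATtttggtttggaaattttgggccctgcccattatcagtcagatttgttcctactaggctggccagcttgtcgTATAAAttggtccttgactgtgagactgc
The window printed for Sprr1b ends inside the gene as listed (92436808 to 92438817), and its marked TATAAA lies within that span. Upstream regions were found for 44 of the 47 members. AP-1 letters were in 17 of them, against 6.87% of 27025 promoters of the same length. They were in 2 of 2 Sprr1, 7 of 10 Sprr2 and 5 of 7 fused-type S100 regions, and in 0 of 13 Lce1 and 0 of 6 Lce3 regions. Of the genes single of their kind, 3 of 3 regions found had them (Lor, Ivl and Prr9). TATA box letters were in 21 of 44, against 12.97% of all promoters, and the octamer in 7 of 44, against 1.61%. The TATA box matches of Lce6a and Lce3e read TTTATA, the reverse complement, and began 218 and 243 bases before the gene start. All 7 octamers belonged to Sprr2 genes. In the same 7 Sprr2 genes the AP-1 match began 182 to 198 bases before the gene start, the octamer 108 to 112 bases before it and the TATA box 29 bases before it. The windows of Sprr2a1, Sprr2a2 and Sprr2a3 held none of the 3. Those annotated genes (positions 92215835 to 92222491, 92250647 to 92257304 and 92285304 to 92289264) are longer than the other Sprr2 genes. Only 1 window per gene was read, so whether these letters lie nearer their coding starts was not examined. The letters TGACNNNGC (antioxidant response element) were in 7 of 44 regions, 3 of them Lce3, against 10.1% of all promoters. An AP-1 match can lie inside such a match. TTCNNNGAA (STAT factors) was in 2 of 44 against 7.18%, the NF-kB motif in 2 of 44 against 17.3%, and AACCGGTT (grainyhead factors) in 0 of 44 against 0.122%. These matches describe letters in a window and are not shown to be bound.

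The 47 genes took 0.659% to 0.896% of all counts in LPC day 7, 1.01% to 1.63% in vehicle day 7, 0.774% to 1.41% in LPC day 4 and 0.653% to 1.52% in vehicle day 4. Per length, the order of the members differed between groups. In LPC day 7 the highest mean FPKM belonged to Sprr1b, with 1645 ± 751, then Sprr2d with 1575 ± 594 and Sprr1a with 1008 ± 415 (SD, n = 4), which did not differ by more than their spread. Lor had the highest mean in the other groups. It was 2295 ± 1665 FPKM in vehicle day 7, 2285 ± 1000.1 FPKM in LPC day 4 and 2565 ± 1537 FPKM in vehicle day 4 (SD, n = 4). In LPC day 7 it stood at 443 ± 192 FPKM (SD, n = 4). In vehicle day 7 Lor ran from 988 to 4664 FPKM and Sprr1b, next by mean, from 303 to 1975 FPKM, so the ranges overlapped. The ratio of summed Sprr2 to summed Lce1 FPKM was 4.28 to 24.8 in LPC day 7, against 0.0481 to 3.35 in vehicle day 7, 0.144 to 1.24 in LPC day 4 and 0.0255 to 1.02 in vehicle day 4. Each LPC day 7 library therefore lay above each library of the other groups in this ratio, which was formed after the opposite changes were known.

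**Figure D1:**
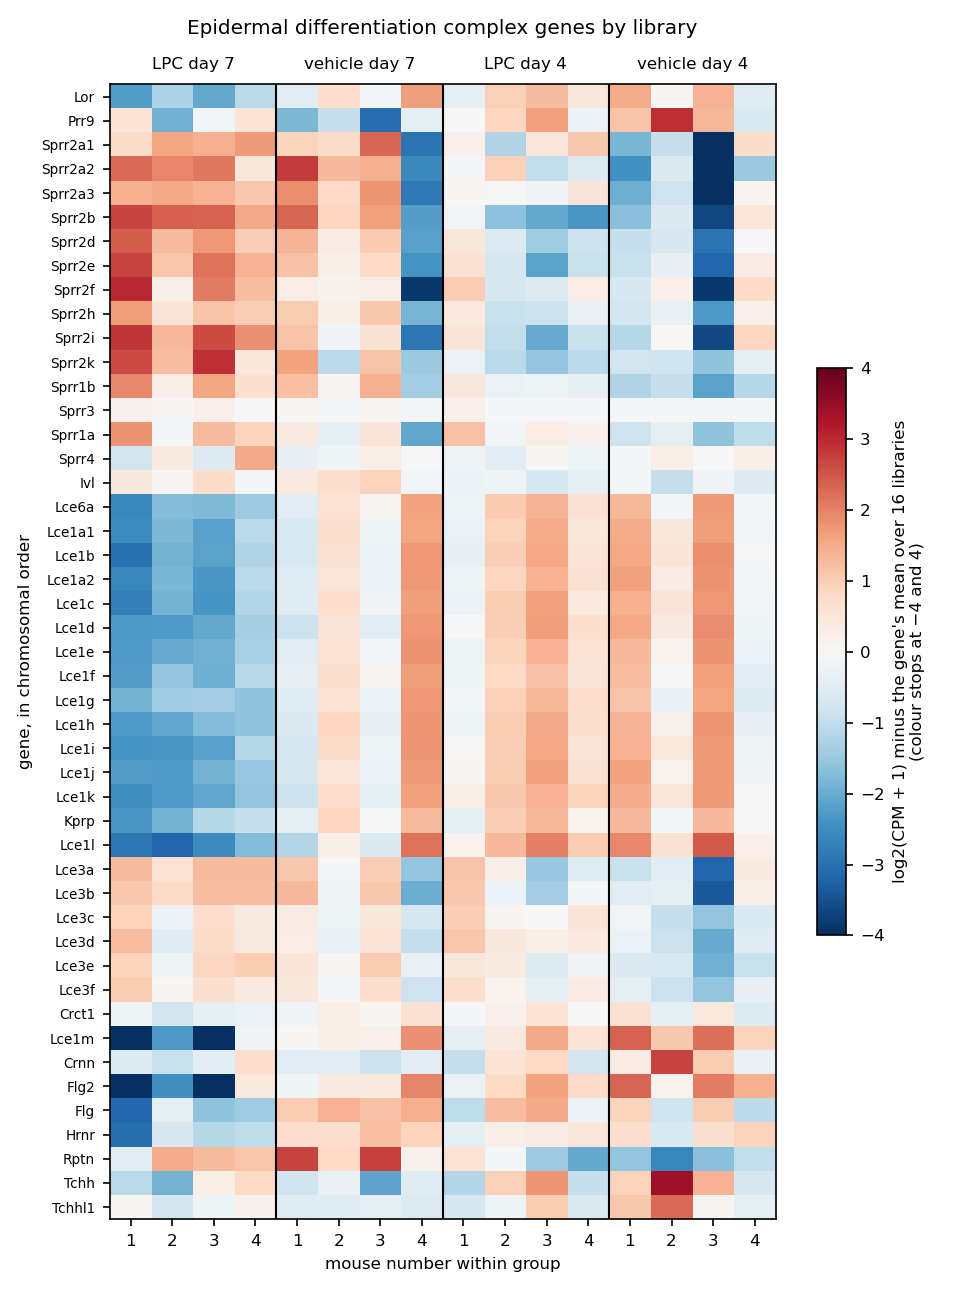
Levels of the 47 genes (rows, in chromosomal order) in the 16 libraries (columns, 4 mice per group), as log2(CPM + 1) minus the mean of that gene over all libraries; the colour scale stops at −4 and 4. The Lce1 rows are blue in the 4 LPC day 7 columns, except Lce1m in mouse 4, the Sprr2 rows are red there, and vehicle day 7 mouse 4 and vehicle day 4 mouse 3 show the reverse.

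A pair of vehicle libraries stood apart from the other mice of their groups. Vehicle day 7 mouse 4 and vehicle day 4 mouse 3 had the lowest summed Sprr2 level of their groups, at 217 and 112 CPM, and the highest summed Lce1 level, at 4023 and 4282 CPM. Their 8 neutrophil markers, of which S100a8 and S100a9 are also made by inflamed keratinocytes, summed to 213 and 81.6 CPM, against 3398 to 4916 CPM in the other vehicle day 7 mice and 995 to 2484 CPM in the other vehicle day 4 mice. Counts of members called are given with and without them.

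With LPC at day 7, 13 of the 14 Lce1 genes (all but Lce1m), Lce6a, Lor, Kprp, Flg and Hrnr fell, and no member rose. Of 46 members tested, 18 fell at an adjusted p below 0.05 (edgeR quasi-likelihood test, Benjamini-Hochberg over 15782 genes), where 3.83% of all genes tested were called, 1.44% as fallen and 2.38% as risen. The median log2 fold change of LPC over vehicle was −2.64 for the 14 Lce1 genes, 0.52 for the 6 Lce3 genes and 1.04 for the 10 Sprr2 genes, and 0.02 over all genes tested. In 20 members each LPC library was below each vehicle library, where 5.16% of all genes tested showed this, and in 1 member, Sprr2i, each LPC library was above, where 5.70% did. In these bulk samples, fewer cells of a type and less RNA per cell cannot be told apart.

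The Lce1 genes encode small cysteine- and glycine-rich envelope proteins made late in cornification. Summed over its 14 genes, Lce1 stood at 199.8, 293, 263 and 529.6 CPM in LPC day 7 mice 1 to 4, against 812, 1790.4, 1049 and 4023 CPM in vehicle day 7 mice 1 to 4. The groups did not overlap, and the highest LPC mouse was below the lowest vehicle mouse. Lce1a1, the member of the group with the highest mean FPKM, had 36.1, 58.9, 45.3 and 97.7 CPM in LPC day 7 mice and 137, 322, 186 and 629 CPM in vehicle day 7 mice, a log2 fold change of −2.42 ± 0.54 (SE, edgeR adjusted p = 0.029). Lce1d had 26.4, 26.7, 31.4 and 52.4 CPM in LPC day 7 mice and 73.3, 188, 98.4 and 446 CPM in vehicle day 7 mice, a log2 fold change of −2.56 ± 0.59 (SE, edgeR adjusted p = 0.030). Neither gene overlapped between the groups, and vehicle mouse 4 was highest for both. Lce1b had 13.3, 29.0, 24.2 and 48.0 CPM in LPC day 7 mice and 73.1, 172, 94.2 and 375 CPM in vehicle day 7 mice, a log2 fold change of −2.64 ± 0.59 (SE, edgeR adjusted p = 0.029). The 13 Lce1 genes that fell had log2 fold changes between −3.36 (Lce1l) and −2.28 (Lce1g) and adjusted p between 0.017 and 0.032. Lce6a, a single late envelope gene next to them, fell by 2.61 on the log2 scale (adjusted p = 0.021). The exception was Lce1m, at −2.54 ± 0.85 (SE, adjusted p = 0.11), although each LPC mouse was below each vehicle mouse.

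Lor encodes loricrin, the main protein of the envelope by mass. It had 521, 1059, 597 and 1176 CPM in LPC day 7 mice and 1824, 3932, 2393 and 7855 CPM in vehicle day 7 mice. All 4 LPC mice lay below all 4 vehicle mice, and the log2 fold change was −2.26 ± 0.55 (SE, edgeR adjusted p = 0.037). Kprp, a keratinocyte proline-rich protein gene between Lce1k and Lce1l, had 36.4 ± 16.02 CPM in LPC day 7 and 153 ± 78.1 CPM in vehicle day 7 (SD, n = 4) and fell by 2.07 on the log2 scale (SE 0.49, adjusted p = 0.034). Ivl, the gene of the early envelope protein involucrin, had 86.0, 64.1, 104 and 60.9 CPM in LPC day 7 mice and 82.7, 99.8, 120.0 and 58.1 CPM in vehicle day 7 mice. These groups overlapped across nearly the whole range, with a log2 fold change of −0.19 ± 0.24 (SE, edgeR adjusted p = 0.73). Crct1, a cysteine-rich gene beside Lce3, was lower in each LPC mouse, with 206 ± 33.4 CPM against 312 ± 69.8 CPM in vehicle day 7 (SD, n = 4), and did not pass the test (log2 fold change −0.60, adjusted p = 0.20).

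**Figure D2:**
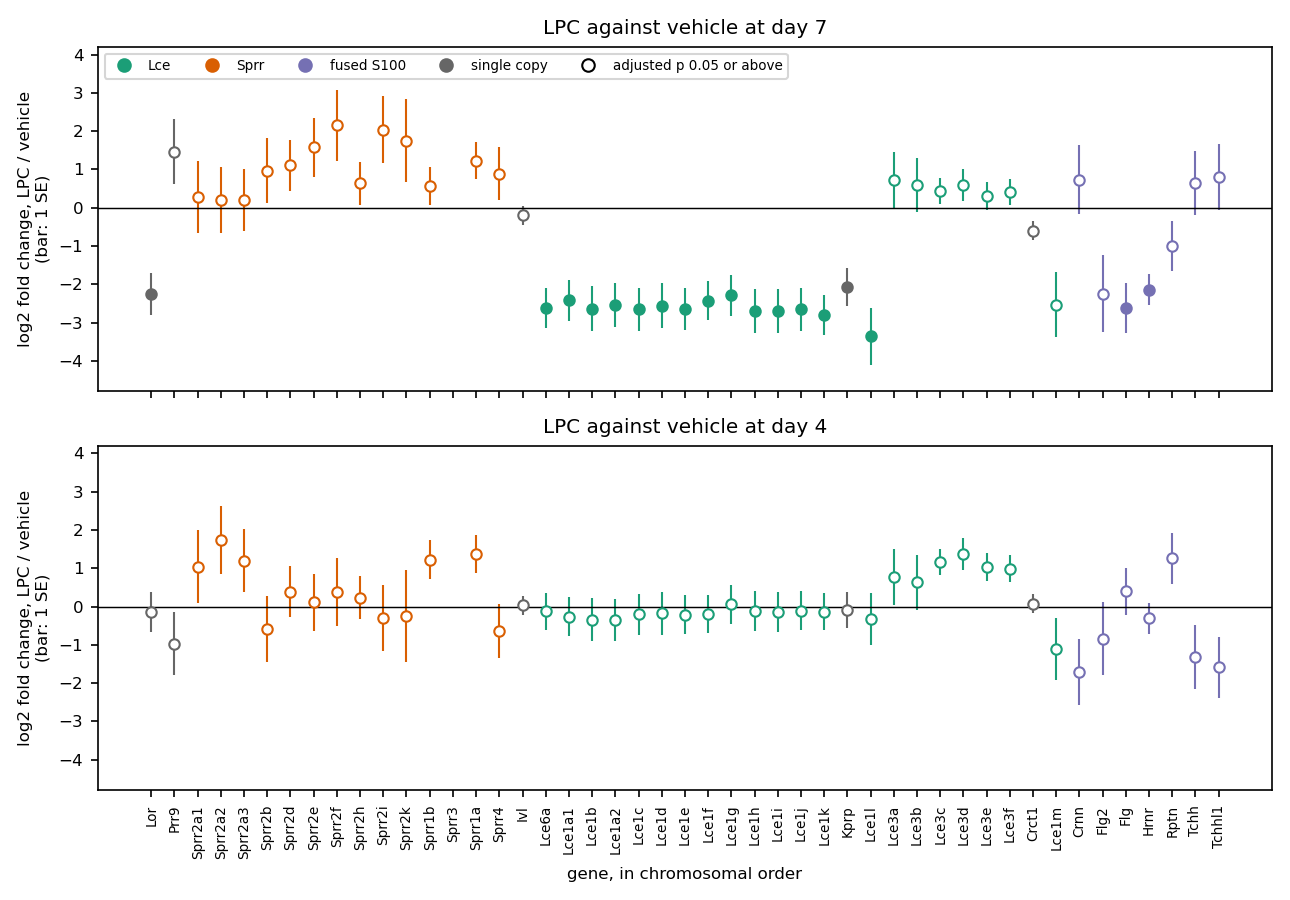
Log2 fold change of LPC over vehicle (vertical axis; bars are 1 SE of the edgeR model) for the tested members in chromosomal order, at day 7 (top) and day 4 (bottom), n = 4 mice per group; filled points have an adjusted p below 0.05. At day 7 the run from Lce6a to Lce1l, with Kprp, lies between −3.36 and −2.07, while the Sprr genes before it and the Lce3 genes after it lie above 0.

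Among the fused-type S100 genes, Flg and Hrnr fell and the other 5 did not pass the test. Flg encodes profilaggrin, which is cut into the filaggrin that bundles keratin. It had 47.1, 325, 140.2 and 157 CPM in LPC day 7 mice and 863, 1116, 963 and 1158 CPM in vehicle day 7 mice. No LPC mouse came near the lowest vehicle mouse, and the log2 fold change was −2.62 ± 0.65 (SE, edgeR adjusted p = 0.040). Hrnr encodes hornerin, a filaggrin relative. It had 16.2, 87.2, 62.2 and 68.2 CPM in LPC day 7 mice and 218, 227, 322 and 261 CPM in vehicle day 7 mice. The groups were again apart, with LPC mouse 1 lowest, and the log2 fold change was −2.14 ± 0.42 (SE, edgeR adjusted p = 0.018). Flg2, another filaggrin relative, had 1.02, 12.04, 2.93 and 95.2 CPM in LPC day 7 mice and 62.4, 91.1, 93.6 and 281 CPM in vehicle day 7 mice. LPC mouse 4 lay among the vehicle mice while the other 3 lay far below them, and the log2 fold change of −2.24 ± 1.00 did not pass (SE, edgeR adjusted p = 0.23). Rptn, the gene of repetin, had 42.7, 164, 143 and 127 CPM in LPC day 7 mice and 388, 103, 393 and 66.2 CPM in vehicle day 7 mice. Vehicle mice 1 and 3 were high and mice 2 and 4 were within the LPC range (log2 fold change −0.99 ± 0.65 SE, edgeR adjusted p = 0.44).

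**Figure D3:**
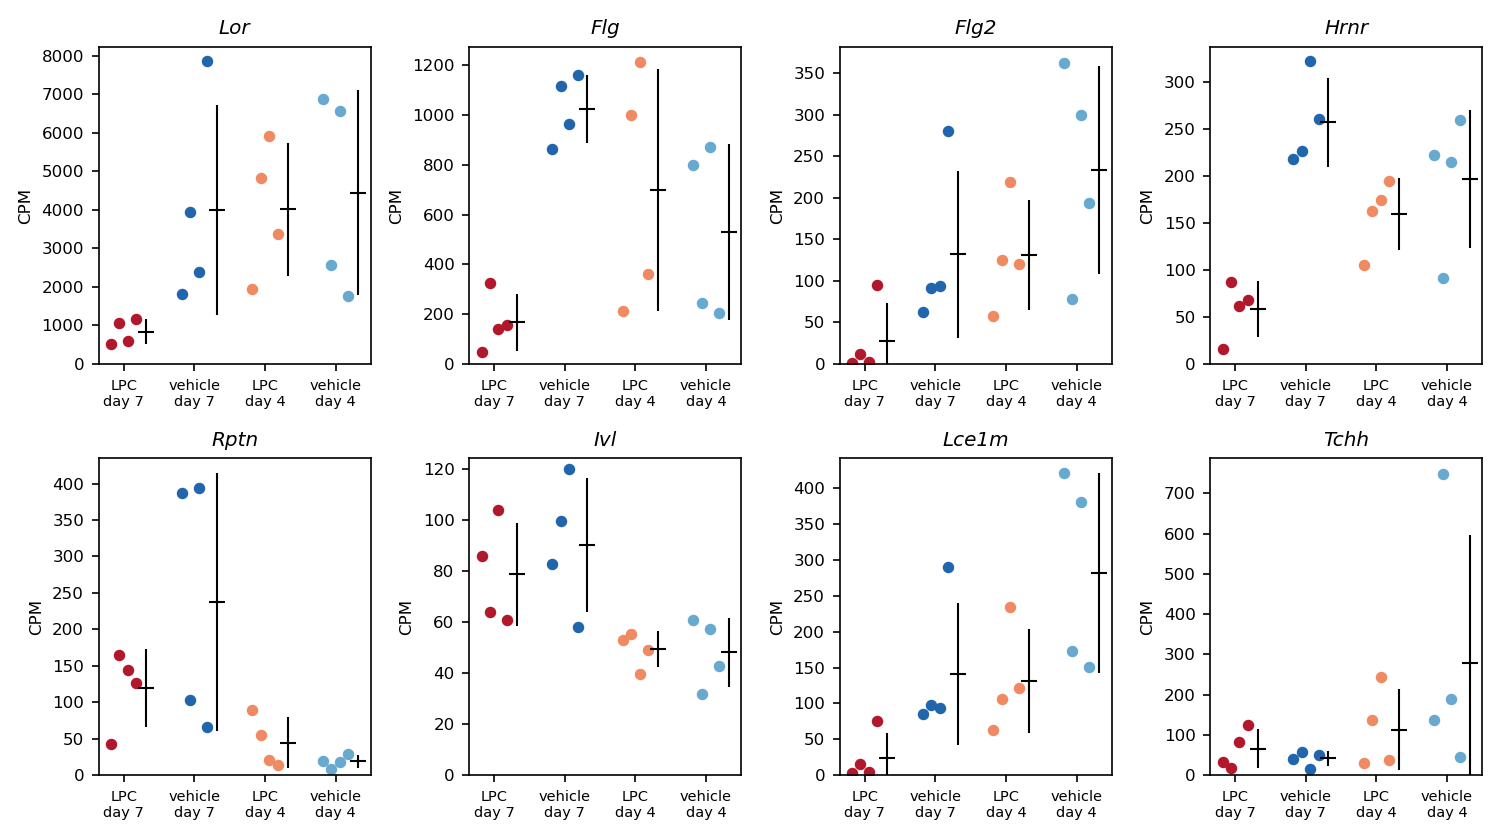
CPM (vertical axis, from 0) of 8 members in each mouse of the 4 groups, with the mean and 1 SD as black bars (n = 4). Flg and Hrnr of LPC day 7 lie wholly below vehicle day 7, Flg2 and Lce1m of LPC day 7 have 1 mouse (mouse 4) apart from the other 3, and Ivl of the day 7 groups overlaps.

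None of the 13 tested Sprr genes and none of the 6 Lce3 genes passed the test with LPC at day 7, although all 19 had a positive log2 fold change (0.20 to 2.15). The sign turned for Sprr4 without LPC mouse 4 (−0.40) and on log2(FPKM + 0.1) values (−0.16), and for Sprr2a1, Sprr2a2 and Sprr2a3 without vehicle mouse 4 (−0.11, −0.19 and −0.19). Without the adjustment, 3 members were higher and 21 lower at p below 0.05, where 11.3% and 8.47% of all genes tested were. Sprr1b, the cornifin gene with the higher mean FPKM of its pair, had 2045, 648, 1611 and 836 CPM in LPC day 7 mice and 1229, 563, 1456 and 205 CPM in vehicle day 7 mice. The groups overlapped, with vehicle mouse 4 far below the other vehicle mice (log2 fold change 0.57 ± 0.50 SE, edgeR adjusted p = 0.59). Sprr1a had 1385, 386, 964 and 746 CPM in LPC day 7 mice and 508, 303, 576 and 92.8 CPM in vehicle day 7 mice, with LPC mouse 2 inside the vehicle range (log2 fold change 1.23 ± 0.50 SE, edgeR adjusted p = 0.18). Sprr2d had 1860.0, 826, 1165 and 689 CPM in LPC day 7 mice and 892, 433, 709 and 75.1 CPM in vehicle day 7 mice, a log2 fold change of 1.11 ± 0.66 (SE, edgeR adjusted p = 0.39). LPC mice 2 and 4 of Sprr2d lay within the vehicle range. Sprr2h had 665, 296, 457 and 409 CPM in LPC day 7 mice and 425, 244, 442 and 56.9 CPM in vehicle day 7 mice (log2 fold change 0.65 ± 0.56 SE, edgeR adjusted p = 0.58). Sprr2a3 had 441, 484, 436 and 348 CPM in LPC day 7 mice and 608, 283, 569.6 and 21.8 CPM in vehicle day 7 mice (log2 fold change 0.20 ± 0.81 SE, edgeR adjusted p = 0.93). Vehicle mouse 4 was far the lowest for both genes. The other vehicle mice lay on both sides of all LPC values for Sprr2a3, and LPC mice 1 and 3 were above every vehicle mouse for Sprr2h. Sprr2i was the 1 Sprr gene without overlap, at 321, 108, 273 and 156 CPM in LPC day 7 mice and 97.6, 39.4, 66.8 and 5.04 CPM in vehicle day 7 mice, and its log2 fold change of 2.04 ± 0.88 did not pass (SE, edgeR adjusted p = 0.21).

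The 6 Lce3 genes, which belong to wound- and psoriasis-associated epidermis, overlapped between the day 7 groups, with log2 fold changes of 0.31 to 0.72. Lce3c had 309, 138, 256 and 206 CPM in LPC day 7 mice and 204, 139, 221 and 102 CPM in vehicle day 7 mice (log2 fold change 0.45 ± 0.34 SE, edgeR adjusted p = 0.52). Lce3d had 186, 56.2, 131 and 101 CPM in LPC day 7 mice and 96.3, 63.1, 115 and 40.0 CPM in vehicle day 7 mice (log2 fold change 0.59 ± 0.41 SE, edgeR adjusted p = 0.47). Both genes overlapped between the groups, with LPC mouse 1 highest and vehicle mouse 4 lowest. Lce3b had 93.8, 74.5, 103 and 104 CPM in LPC day 7 mice and 109, 39.0, 92.4 and 10.2 CPM in vehicle day 7 mice, also overlapping (log2 fold change 0.59 ± 0.71 SE, edgeR adjusted p = 0.72).

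**Figure D4:**
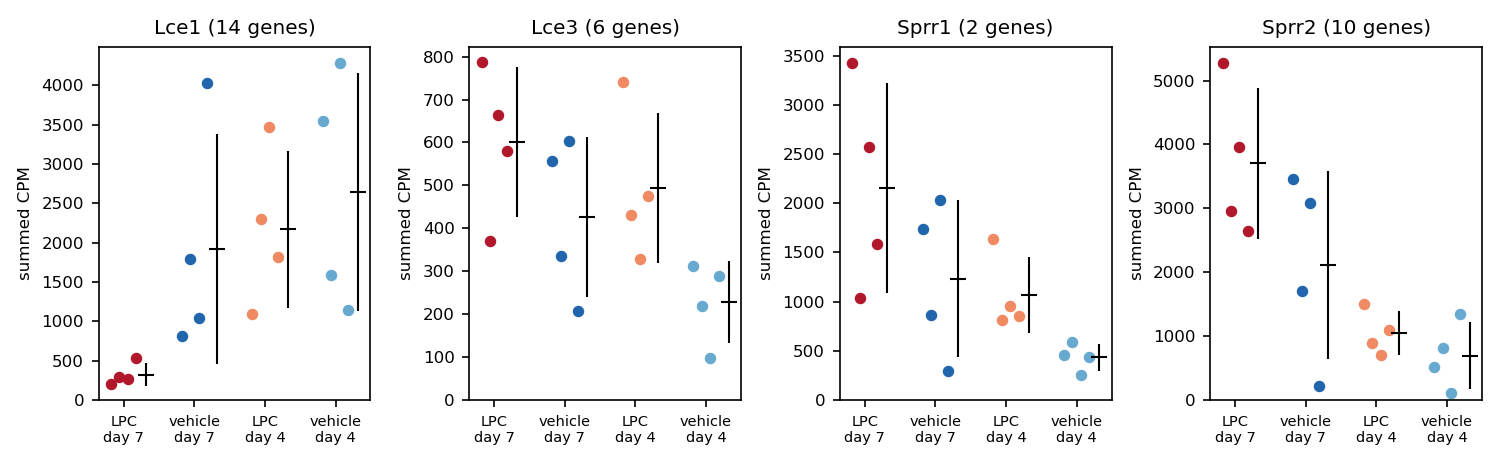
Summed CPM (vertical axis, from 0) of the Lce1, Lce3, Sprr1 and Sprr2 genes in each mouse of the 4 groups, with the mean and 1 SD as black bars (n = 4). Lce1 of LPC day 7 (199.8 to 529.6 CPM) lies below every other library, and 1 vehicle day 7 mouse (mouse 4) is high in Lce1 and low in Sprr1 and Sprr2.

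The number of members that fell at day 7 depended on single libraries and on scaling, while Lor, Kprp, Hrnr, Lce6a and the Lce1 genes kept a negative fold change in every setting run. It was 1 (Hrnr) without LPC day 7 mouse 1, 5 without LPC mouse 3, 5 without vehicle mouse 2, 2 without vehicle mouse 4 and 3 without both vehicle libraries that stood apart, fits in which 0.176%, 0.591%, 0.433%, 0.208% and 0.41% of all genes fell. It was 0 when libraries were scaled to the basal keratinocyte markers, where 0.0824% of all genes were called, and 0 when only the 8 day 7 libraries were fitted, where 0.295% were. Hrnr passed in 8 of 8 fits that left out 1 library, Lce1k in 7, Lce6a in 6, Lor in 3, Kprp in 2 and Flg in 1. Lce1k is named here after its values were seen, and without vehicle mouse 4 no other Lce1 gene passed. Across those 8 fits the log2 fold change stayed between −2.40 and −1.82 for Hrnr, −2.50 and −1.70 for Lor and −3.16 and −2.31 for Flg.

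Genes outside the complex that act in the same cells were read from lists for comparison. Of 15 suprabasal keratin and corneodesmosome genes, 7 fell and 0 rose with LPC at day 7, with a median log2 fold change of −1.09. Krt10, the suprabasal partner of keratin 1, averaged 1649.6 ± 918 CPM in LPC day 7 and 7794 ± 834 CPM in vehicle day 7 (SD, n = 4) and fell by 2.24 on the log2 scale (edgeR adjusted p = 0.015). Mt4, a metallothionein of stratified epithelia, stood at −3.44, Krt78 at −1.69 and the desmosomal cadherin Dsg1a at −1.34 on that scale, and all 3 fell. Of 13 genes of envelope crosslinking and scaffold, 1 fell, Ppl (periplakin, −0.83 ± 0.19 SE, edgeR adjusted p = 0.030), and 0 rose. Of its other leading genes, the crosslinking enzyme genes Tgm5 and Tgm1 stood on either side of 0, at −0.61 and 0.55 on the log2 scale (edgeR adjusted p = 0.12 and 0.18), and Krtdap at −0.47 (0.21). Of 15 genes of filaggrin processing, 0 passed in either direction, and Asprv1, whose protease cuts profilaggrin, stood at −1.16 on that scale (edgeR adjusted p = 0.080). Hal, the histidine ammonia-lyase gene, stood at −1.23, the protease gene Prss8 at −1.08 and the protease gene Furin at 0.51. Of the other 14 tested genes of the locus, mostly S100 genes, 0 passed, with S100a13 at 0.71, S100a7a at 1.40, Pglyrp4 at 0.46 and S100a9 at 1.49 (edgeR adjusted p 0.11 to 0.41).

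Of 35 regulators of terminal differentiation, 2 rose and 3 fell with LPC at day 7. Pou2f3, a POU factor of suprabasal keratinocytes, averaged 20.6 ± 6.20 CPM in LPC day 7 and 73.3 ± 16.1 CPM in vehicle day 7 (SD, n = 4), and fell by 1.83 on the log2 scale (SE 0.26, edgeR adjusted p = 0.010). Barx2 fell by 1.04 and Grhl1, a grainyhead factor, by 0.67 on the log2 scale. Cebpb rose, at 368 ± 201 CPM in LPC day 7 against 181 ± 21.2 CPM in vehicle day 7 (SD, n = 4, edgeR adjusted p = 0.040), and so did the AP-1 gene Fosl2 (log2 fold change 0.90, adjusted p = 0.049), which is named after its value was seen. The 4 wound keratins, known for regenerating epidermis, had a median log2 fold change of 0.84 and none passed, with Krt17 at 0.99, Krt6a at 0.86, Krt16 at 0.60 and Krt6b at 0.83. The 10 basal keratinocyte markers had a median of 0.34 and none passed. Other markers moved with these results: the 8 neutrophil markers summed to 4491 to 12864 CPM in LPC day 7 and 213 to 4916 CPM in vehicle day 7, and the 7 suprabasal keratinocyte markers to 8778 to 12995 CPM and 15888 to 28959 CPM in the same groups. The 8 sebaceous gland markers summed to 1236 to 3872 CPM in LPC day 7 and 2212 to 7849 CPM in vehicle day 7, with 1 fallen, 0 positive and a median log2 fold change of −1.23. The 8 adipocyte markers were all positive (median 1.81, none past the test), at 105 to 3618 CPM in LPC day 7 and 180 to 747 CPM in vehicle day 7. The part of these tissues in the fall of the members was not tested. The 10 skeletal muscle markers overlapped between these groups. With the muscle level as a covariate 18 members fell, where 6.8% of all genes were called, 2.77% as fallen.

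With LPC at day 4, no member passed the edgeR test, where 0.139% of all genes tested did (0.0444% as fallen, 0.095% as risen), and the Lce1 genes, Lor, Flg and Hrnr overlapped between the groups. At p below 0.05 without adjustment, 6 members were higher and none was lower, where 9.02% and 10.2% of all genes tested were. DESeq2 called 2, Lce3c and Lce3d, both higher, where it called 6.62% of all its genes. The median log2 fold change was 1.01 for Lce3, 1.30 for Sprr1 and −0.20 for Lce1, and the Lce1 median was 0.16 without vehicle day 4 mouse 3 and 0.02 without LPC day 4 mouse 1. Lce3c had 316, 175, 159 and 231 CPM in LPC day 4 mice and 149, 84.5, 52.7 and 105 CPM in vehicle day 4 mice, a log2 fold change of 1.17 ± 0.34 (SE, edgeR adjusted p = 0.085). Lce3d had 170.1, 107, 92.7 and 102 CPM in LPC day 4 mice and 65.2, 42.6, 18.8 and 54.2 CPM in vehicle day 4 mice, a log2 fold change of 1.39 ± 0.42 (SE, edgeR adjusted p = 0.095). Each LPC mouse lay above each vehicle mouse for both genes.

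Sprr1b had 729, 445, 465 and 412 CPM in LPC day 4 mice and 234, 282, 119 and 242 CPM in vehicle day 4 mice (log2 fold change 1.22 ± 0.51 SE, edgeR adjusted p = 0.20). Sprr1a had 905, 371, 493 and 445 CPM in LPC day 4 mice and 224, 308, 131 and 197 CPM in vehicle day 4 mice (log2 fold change 1.37 ± 0.50 SE, edgeR adjusted p = 0.15). Both were apart between the groups, as was Lce3e, so that 5 members were higher in each LPC mouse, where 7.42% of all genes tested were. In 0 members was each LPC mouse lower, where 8.67% of all genes tested showed that. A fit of the 8 day 4 libraries alone called Sprr1a and Sprr1b (adjusted p = 0.040 and 0.037) and none of the Lce3 genes, where it called 8.67% of all genes. Sprr2d, with 476, 238, 127 and 188 CPM in LPC day 4 mice and 183, 218, 43.5 and 339 CPM in vehicle day 4 mice, overlapped (log2 fold change 0.39 ± 0.66 SE, edgeR adjusted p = 0.78). Lor had 1936, 4816, 5915 and 3379 CPM in LPC day 4 mice and 6884, 2558, 6563 and 1771 CPM in vehicle day 4 mice, spread over nearly the same range (log2 fold change −0.15 ± 0.52 SE, edgeR adjusted p = 0.90). Skeletal muscle markers were lower in each LPC day 4 mouse than in each vehicle day 4 mouse. They summed to 247 to 2561 against 2811 to 30767 CPM, all 10 of 10 detected. The 7 suprabasal keratinocyte markers were higher in each LPC mouse (14181 to 17448 against 9101 to 13616 CPM, median log2 fold change 0.50). Positive were 9 of 10 basal keratinocyte (median 0.61), 7 of 7 dermal fibroblast (0.48), 0 of 8 adipocyte (−2.15) and 1 of 8 inner root sheath markers (−1.77), none past the test. The part of these tissues was not tested beyond the muscle covariate, with which 0 members passed, and 0% of all genes.

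Within the LPC-treated mice, 17 of 46 members fell between day 7 and day 4 and 2 rose, where 4.13% of all genes tested fell and 6.87% rose. The 2 that rose are 4.35% of the members tested, below the share of all genes. The 4 LPC day 7 libraries are also those of the comparison with vehicle, so the 2 sets of values are not independent. The members that fell were 13 Lce1 genes (log2 fold changes −3.86 to −2.36), Lce6a (−2.77), Lor (−2.26), Kprp (−2.17) and Hrnr (−1.45). Side by side with the comparison against vehicle, Lor was at −2.26 in both, Lce1a1 at −2.60 here and −2.42 against vehicle, and Flg at −2.06 here, which missed the threshold (edgeR adjusted p = 0.0502), and −2.62 against vehicle. Sprr2b had 279.5, 224, 219 and 122 CPM in LPC day 7 mice and 38.9, 12.7, 9.35 and 7.63 CPM in LPC day 4 mice. The days did not overlap, and it rose by 3.63 ± 0.94 on the log2 scale (SE, edgeR adjusted p = 0.028). Sprr2k, a low member at 17.6, 6.22, 22.0 and 3.22 CPM in LPC day 7 mice and 1.55, 0.440, 0.0519 and 0.458 CPM in LPC day 4 mice, rose by 4.29 ± 1.24 (SE, edgeR adjusted p = 0.040). Sprr2d had 1860.0, 826, 1165 and 689 CPM in LPC day 7 mice and 476, 238, 127 and 188 CPM in LPC day 4 mice, without overlap (log2 fold change 2.14 ± 0.68 SE, edgeR adjusted p = 0.056). In all, 8 members (7 Sprr2 genes and Ivl) were higher in each day 7 mouse, and 18 members were lower in each. Of all genes tested, 8.85% and 8.22% were.

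The day comparison with LPC gave 0 members with basal keratinocyte scaling (0.146% of all genes called) and 11 with the muscle covariate (5.02%). It gave 26 by DESeq2 (18.5%), 23 with only the groups compared (7.24%) and 27 without both vehicle libraries that stood apart (15.2%). Of 8 fits that left out 1 library, Sprr2b passed in 4 and Sprr2k in 1. Of the suprabasal keratin and corneodesmosome list, 3 of 15 fell here, of the regulators 4 of 35 fell and 1 rose, and of the wound keratins 1 of 4 rose. Pou2f3 fell by 1.60 and Cebpb rose by 0.89 on the log2 scale. Inner root sheath markers summed to 74.9 to 342 CPM in LPC day 7 and 126 to 874 CPM in LPC day 4, all 8 detected, and neutrophil markers to 4491 to 12864 CPM and 433 to 2749 CPM. Among the 8 inner root sheath markers 1 fell and 1 was positive (median log2 fold change −1.30). Hair shaft markers were positive in 0 of 9 and none passed (median −2.91), and 2 of 8 neutrophil markers rose, with all 8 positive (median 1.73). Of 8 sebaceous gland markers 4 fell and 0 were positive (median log2 fold change −1.79), at 1236 to 3872 CPM in LPC day 7 and 2720.1 to 7038 CPM in LPC day 4. Of 6 macrophage markers 2 rose (median 1.72), of 10 skeletal muscle markers 1 rose and all were positive (median 2.84), and of 8 adipocyte markers 7 were positive and none passed (median 2.14). The part of these tissues was not tested beyond the muscle covariate.

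Within the vehicle mice, no member passed between day 7 and day 4 by edgeR, and no gene of all those tested did (0%). At p below 0.05 without adjustment, 10 members were higher and 4 lower at day 7, where 7.32% and 5.67% of all genes tested were. DESeq2 called 8, where it called 1.54% of all its genes, with Rptn, Sprr1b, Sprr2a2 and Lce3e higher and Tchh, Tchhl1, Crnn and Prr9 lower. Hair markers were lower beside them: 0 of 8 inner root sheath and medulla markers were positive (median log2 fold change −3.85; 73.7 to 197 CPM in vehicle day 7 and 188 to 3140.1 CPM in vehicle day 4) and 0 of 9 hair shaft markers (median −3.41), with none past the test, and their part in these values was not tested. Rptn had 388, 103, 393 and 66.2 CPM in vehicle day 7 mice and 18.9, 8.74, 17.7 and 28.9 CPM in vehicle day 4 mice, without overlap (log2 fold change 3.68 ± 0.72 SE, edgeR adjusted p = 0.16). Ivl had 82.7, 99.8, 120.0 and 58.1 CPM in vehicle day 7 mice and 60.7, 31.6, 57.1 and 43.0 CPM in vehicle day 4 mice, with day 7 mouse 4 inside the day 4 range (log2 fold change 0.91 ± 0.25 SE, edgeR adjusted p = 0.21). Rptn and Lce3e were higher in each day 7 mouse, where 3.45% of all genes tested were, and Crnn and Tchhl1 lower, where 2.76% were, so 4 members did not overlap, against 6.21% of all genes. Without vehicle day 7 mouse 4, edgeR called 4 members as risen, where 0.975% of all genes were: Rptn (adjusted p = 0.025), Sprr1b (0.027), Sprr2a2 (0.043) and Ivl (0.047). Without both vehicle libraries that stood apart, it called 0 members, where it called 0.0253% of all genes.

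The test of the difference between the days of the LPC effect gave 0 members by edgeR, 0% of all genes tested, so the fall at day 7 is not shown to differ from day 4. The smallest adjusted p was 0.16, for Lce1k, with a difference of −2.67 ± 0.71 on the log2 scale (SE). Without adjustment, 19 members had p below 0.05, all with a lower LPC effect at day 7, where 6.15% of all genes tested were lower and 10.8% higher. DESeq2 called 12, all lower, where it called 4.03% of all its genes. For Flg the difference was −3.01 ± 0.88 (SE, edgeR adjusted p = 0.17), with a log2 fold change of −2.62 at day 7 and 0.40 at day 4. Flg had 211, 1000.4, 1214 and 361 CPM in LPC day 4 mice and 797, 244, 869 and 205 CPM in vehicle day 4 mice, a wide and overlapping spread.

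Tchh, with Tchhl1, Crnn and Prr9, did not follow the envelope genes and had its highest level in 1 vehicle mouse. Tchh had 32.9, 18.5, 83.1 and 125 CPM in LPC day 7 mice, 40.5, 58.3, 15.6 and 50.9 CPM in vehicle day 7 mice, 31.0, 138, 244 and 37.1 CPM in LPC day 4 mice and 136, 748, 188 and 44.1 CPM in vehicle day 4 mice. Vehicle day 4 mouse 2 was also the highest of the 16 libraries for Tchhl1 (9.09 CPM), Crnn (15.1 CPM) and Prr9 (87.1 CPM). In that library the 8 inner root sheath and medulla markers summed to 3140.1 CPM, against 73.7 to 874 CPM in the other 15. The LPC effect on Tchh did not pass at day 7 (log2 fold change 0.65 ± 0.83 SE, edgeR adjusted p = 0.74) or at day 4 (−1.31 ± 0.84 SE, adjusted p = 0.41), and the part of follicle tissue in it was not tested.

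**Figure D5:**
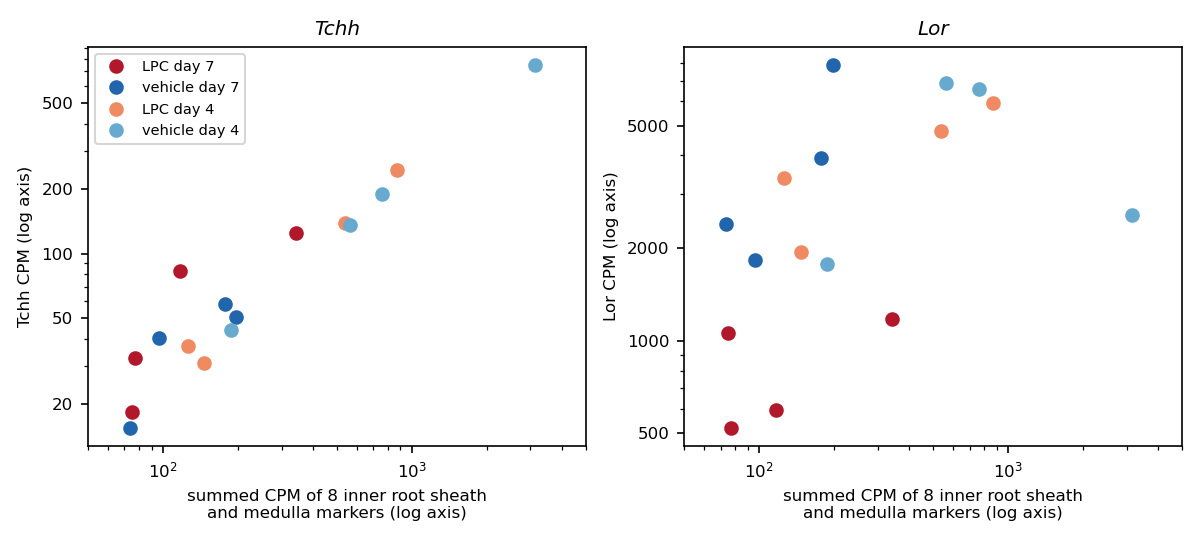
CPM of Tchh (left) and Lor (right) against the summed CPM of 8 inner root sheath and medulla markers in the 16 libraries, all axes logarithmic, coloured by group. Tchh is lowest where the markers sum to 73.7 CPM and highest in the library at 3140.1 CPM, while the LPC day 7 mice are the lowest 4 for Lor at marker sums from 74.9 to 342 CPM.

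Lce1m lies apart from the other Lce1 genes, between Crct1 and Crnn, with Flg2 farther along. In LPC day 7 mice 1 to 4 it had 2.95, 15.7, 3.86 and 74.8 CPM, where Flg2 had 1.02, 12.04, 2.93 and 95.2 CPM. In vehicle day 7 mice it had 84.6, 97.4, 94.2 and 290.1 CPM, where Flg2 had 62.4, 91.1, 93.6 and 281 CPM. In both groups mouse 4 was highest for both genes and, of the LPC mice, mouse 1 was lowest, an order that summed Lce1 and Lor shared. These genes were set side by side after the values were seen, and no tie between them was tested. The other Lce1 genes of LPC day 7 spread less: Lce1a1 was 97.7 CPM in mouse 4 against 36.1 to 58.9 CPM in mice 1 to 3.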

How the data were processed

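Ear skin RNA of 16 mice (4 groups of 4) was extracted with TRIpure and sequenced on a BGISEQ-500, per the labels' protocols. The deposited tables hold expected counts and FPKM per gene. The authors aligned reads to GRCm38 with Bowtie2, and RSEM gave these expected counts and FPKM values, per the labels' protocols and the submitters' processing notes; versions and the strand setting: not given in the sources used here. Groups and days were taken from sample titles; some file names give other days. Titles of the vehicle libraries say only IMQ; they were taken as the saline-injected mice of the treatment protocol. The design text gives 4 mice per group and day, so each of the 4 libraries was taken as 1 mouse and the spread as that between mice.

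A gene missing from a library was set to 0. Expected counts were rounded and fitted over 4 groups with edgeR 4.0.16 (R 4.3.3; filterByExpr, TMM, quasi-likelihood test, 12 residual degrees of freedom, biological coefficient of variation 35.0%), with Benjamini-Hochberg adjustment over 15782 genes at 0.05. SE is the log2 fold change divided by the square root of F. CPM use TMM-scaled library sizes. Totals of 18704197 to 20131513 counts put the limit that a count of 0 allows (3 counts) at 0.145 to 0.181 CPM, for counting error only. Levels of different genes were compared by FPKM; CPM, which grow with transcript length, were used to choose the named members, to sum gene groups and to compare a gene between libraries. Alternatives were DESeq2 1.42.0, limma 3.58.1 on log2(FPKM + 0.1) and log2(FPKM + 1), other scalings, no filter, fewer groups, a replicate block, a muscle covariate and leaving out libraries. The tests were tested on simulated data. No libraries were duplicates (mean chi-square per gene at least 15.9 within groups).

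The members and gene lists were chosen with earlier results of these data known. Of 182 list symbols, 180 matched. Given in full were Flg, Flg2, Hrnr, Rptn, Tchh, Lor, Ivl and up to 3 members with the highest mean CPM of each of Lce1, Lce3, Sprr1 and Sprr2. Of each pathway list, the up to 4 genes with the smallest p for LPC at day 7 were named; others were chosen after their values were seen. Promoters came from RefSeq (GRCm38.p6), transcripts from GENCODE M21. Some sequences are not reported here.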

Additional observations from a re-analysis of the deposited data

Results flagged for a closer look

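Of 72 sets of 4 mice examined (a named gene in 1 group), 3 had 1 mouse far from the other 3. Chance gives this in about 1 set in 20. Flg2 was at 95.2 CPM in LPC day 7 mouse 4, against 1.02 to 12.04 CPM in the other LPC day 7 mice. Flg2 was at 281 CPM in vehicle day 7 mouse 4, against 62.4 to 93.6 CPM in the other vehicle day 7 mice. Sprr1b was at 729 CPM in LPC day 4 mouse 1, against 412 to 465 CPM in the other LPC day 4 mice.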

How the results depend on the processing

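Percentages in brackets are the share of all genes called in the same fit. For LPC against vehicle at day 7, 18 members fell (3.83%). The number was 0 with scaling to basal keratinocyte markers (0.0824%) and 0 with only the groups compared (0.295%). It was 3 without both vehicle libraries of lowest neutrophil marker level (1.16%), an alternative chosen after seeing the data. With 1 library left out it was 1 to 18 (0.698% to 4.38%). At day 4 it was 0 (0.139%), with 2 by DESeq2 (6.62%) and 2 with only the groups compared (8.67%). It was 0 to 0 there with 1 library left out (0% to 4.3%). Between days with LPC it was 19 (11%), with 0 under basal keratinocyte scaling (0.146%) and 11 with the muscle covariate (5.02%). With 1 library left out it was 14 to 20 (3.26% to 13.9%). There it was higher by DESeq2 (26, 18.5%), with only the groups compared (23, 7.24%) and without both vehicle libraries of lowest neutrophil marker level (27, 15.2%). Between days with vehicle it was 0 (0%), with 8 by DESeq2 (1.54%) and 0 to 4 with 1 library left out (0% to 1.29%). For the difference between days it was 0 (0%), with 12 by DESeq2 (4.03%) and 0 to 0 with 1 library left out (0% to 1.35%). Without both of those vehicle libraries the number was 0 at day 4 (3.81%), between days with vehicle (0.0253%) and for the difference (0.347%). The cause was not tested. Basal keratinocyte scaling moved the median of all genes by −0.42 at day 4, −0.57 between days with vehicle, −0.23 between days with LPC and 0.33 for the difference; log2(FPKM + 0.1) moved it by −0.12 at day 7 and between days with LPC. The Sprr2 median at day 4, 0.30, turned to −0.09 under basal keratinocyte scaling, −0.07 without vehicle day 4 mouse 3 and −0.10 without LPC day 4 mouse 1. With the replicate block, 12 members were called at day 7 (2.22%), 17 between days with LPC (5.71%) and 0 in the other comparisons (0% to 0.0127%). Same-numbered mice correlated between −0.60 and 0.54, over 0.1 in 9 of 24 pairs. LPC day 4 and vehicle day 4 correlated positively for each number (0.0994 to 0.54), with 5 of 8 libraries correlating best with their own number, against 0 of 8 in each of the other comparisons; the labels tie no numbers together, and not every pair was over 0.1. Of 1746 values of the named single genes under alternatives, 1653 stayed on their side of the threshold and 31 came to pass it. Another 62 no longer passed, and 0 of those called turned sign. Depth limits the lowest members, such as Sprr3 and Sprr2k.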
